A study of Mus musculus with 6 samples.

Results

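The 7 genes described here are the Roundabout receptors Robo1, Robo2, Robo3 and Robo4 and the Slit ligands Slit1, Slit2 and Slit3 of the mouse. They were chosen by symbol and are 7 of the 24411 gene symbols in the count tables. RNA was sequenced in bulk at postnatal day 18 from 3 wild-type samples (WT) and from 3 samples of mice lacking the large enhancer of Atoh7 (enhancer KO), and no other treatment is named. Atoh7 encodes a proneural transcription factor of retinal ganglion cells. The protocol names the developing cerebellum as the tissue, while the source and tissue fields name the retina. The labels describe the replicates as independent but name no animal, litter or sex, so p-values measure the spread between these samples.

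Slits are large secreted proteins, and Roundabout receptors are transmembrane proteins of the immunoglobulin superfamily. Binding of a Slit to Robo1 or Robo2 repels growing axons and migrating neurons, and is best known for keeping axons from crossing or recrossing the midline. Mammalian Robo3 instead allows crossing and is needed for crossing hindbrain axons and for precerebellar neurons, while Robo4 is a receptor of blood vessel endothelium. In the hindbrain, Slit and Robo genes guide the neurons that will project to the cerebellum.

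Robo1 lies on chr16:72308306-73046095 (plus strand) and Robo2 on chr16:73891839-74411825 (minus strand) of the mm10 build, 845.7 kb apart. Robo4 (chr9:37401897-37415115, plus strand) and Robo3 (chr9:37415669-37433246, minus strand) are neighbours that end 0.553 kb from each other. Slit1 is on chr19:41600257-41743665 (minus strand), Slit2 on chr5:47983138-48307733 (plus strand) and Slit3 on chr11:35121224-35708507 (plus strand). Each of 3 members holds a microRNA gene in an intron on its own strand: Mir218-1 in Slit2 (chr5:48223942-48224051), Mir218-2 in Slit3 (chr11:35616816-35616925) and Mir691 in Robo2 (chr16:74341990-74342067).

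The miR-218 sequences are shown because both Slit-borne loci encode the same 5′ arm, which is known to target Robo receptors. They are RefSeq sequences on GRCm38.p6, with the seed (bases 2 to 8) in capitals. The 5′ arms match in every base, and the 3′ arms differ in their seeds.
mmu-miR-218-5p, from Mir218-1 (chr5:48223966-48223986) and from Mir218-2 (chr11:35616840-35616860): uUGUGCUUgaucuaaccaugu
mmu-miR-218-1-3p (chr5:48224005-48224026): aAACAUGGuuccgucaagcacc
mmu-miR-218-2-3p (chr11:35616882-35616903): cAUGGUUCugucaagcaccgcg

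The reverse complement of the 5′ arm's seed, AAGCACA, was searched on the transcript strand of the longest annotated 3′ UTR of each member. It is in capitals below, with 8 bases on each side, and positions are on mm10.
Robo1 (chr16:73045340-73045362, plus strand): ggttttaaAAGCACAatcactaa
Robo2, first match (chr16:73895351-73895373, minus strand): ttggtgatAAGCACAaatctcta
Robo2, second match (chr16:73893025-73893047, minus strand): gcagacccAAGCACAgcttcttt
Robo3 (chr9:37416237-37416259, minus strand): actcactgAAGCACActgtctac
Slit2, first match (chr5:48304535-48304557, plus strand): actagcagAAGCACAtctacaag
Slit2, second match (chr5:48306838-48306860, plus strand): tattagcaAAGCACAtaaattaa
Robo4, Slit1 and Slit3 had no match in that window. Of all 3′ UTRs within 25% of the same length, 17.7% held the letters for Robo1, 36.6% for Robo2, 3.14% for Robo3 and 31.5% for Slit2. For the members without a match the shares were 17.7% for Robo4, 11% for Slit1 and 3.13% for Slit3. A match is a description of the letters and not a measured site.

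Libraries held 57466712 to 65530873 reads, of which 22812075 to 33076111 were in genes in WT and 36849747 to 40858310 in enhancer KO. Reads outside annotated exons made up 31.1% to 34.1% of all reads in WT and 16.8% to 18.2% in enhancer KO, so this property of the libraries and the genotype cannot be told apart. In WT replicate 2, 20.4% of the reads were unmapped and the ribosomal RNA gene Rn45s took 12.9% of the gene reads. WT replicate 1 alone had many Xist reads (34185, against 28 to 50 in the others) and no Ddx3y read (against 1916 to 4405). It so differs from the rest in both of these sex-linked genes. Atoh7, the targeted gene, was at 1.94, 2.05 and 2.13 CPM (reads relative to the scaled library size) in WT and at 0.744, 0.858 and 0.695 CPM in enhancer KO (edgeR log2 fold change -1.41 ± 0.20 (SE), adjusted p = 0.0003527). Summed CPM of the granule neuron markers was 2955 to 3544 in WT and 1812 to 2260 in enhancer KO, with 12 of 12 called lower. Purkinje cell markers summed to 4586 to 5537 in WT and 6385 to 6854 in enhancer KO, with 9 of 12 called higher. Markers of these cerebellar cell types were thus abundant in all 6 libraries. Beside the marker calls, 17.9% of all genes tested were called lower and 13.4% higher. In bulk RNA, fewer cells of a type and less RNA per cell cannot be told apart, and the part of cell composition in the results below was not tested.

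Transcripts of all 7 genes were detected in every library. Levels were compared between genes as TPM, the reads of a gene divided by its exon length and scaled to the same total in every library. Robo1 and Robo2 were the most abundant members and Robo3 the least. Robo1 was at 31.1 ± 5.22 TPM (SD, n = 3) in WT and 30.2 ± 0.559 in enhancer KO, and Robo2 at 26.5 ± 3.98 and 31.7 ± 0.296. The ranges of these 2 receptors overlapped in WT, while in enhancer KO every Robo2 level lay above every Robo1 level.

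The 3 ligands came next, below Robo2 in every library. Slit3 was at 15.8 ± 0.754 TPM (SD, n = 3) in WT and 11.5 ± 0.308 in enhancer KO, Slit2 at 13.8 ± 1.51 and 12.4 ± 1.601, and Slit1 at 12.01 ± 5.05 and 13.5 ± 1.252. Neighbouring ligands in that order overlapped within both groups. Robo4, at 4.67 ± 1.04 and 2.72 ± 0.529 TPM, lay below every Slit, and Robo3, at 0.624 ± 0.420 and 0.387 ± 0.0783, lay below Robo4 in every library.

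**Figure D1:**
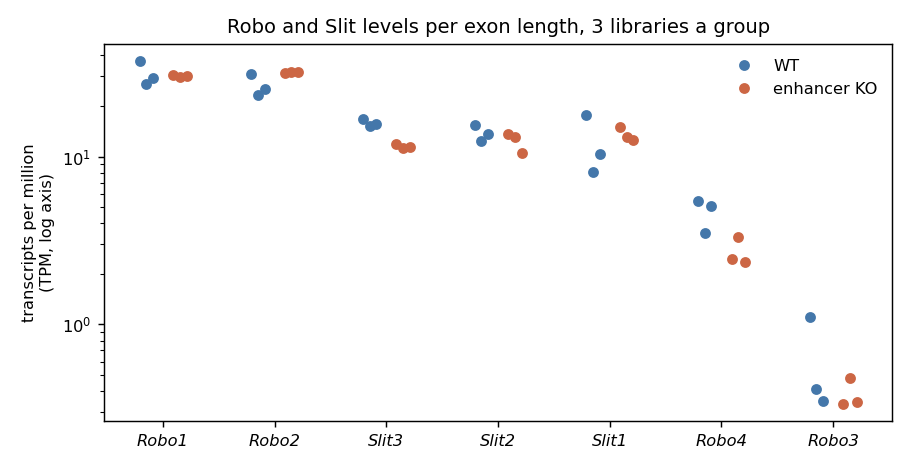
Level of each gene per exon length on a log axis (TPM), with 1 point for each of 3 WT (blue) and 3 enhancer KO (orange) libraries, in order of mean level. Robo1 and Robo2 lie highest, the Slits between, and Robo3 lowest at a mean of 0.624 TPM in WT and 0.387 TPM in enhancer KO.

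Between enhancer KO and WT, Robo2 was higher, Robo4 and Slit3 were lower, and Robo1, Robo3, Slit1 and Slit2 did not pass the test. All 7 members passed the filter on low counts, and edgeR's quasi-likelihood test, adjusted over the 15846 genes tested, called 1 higher and 2 lower. Of all genes tested, 31.3% were called in either direction, 13.4% higher and 17.9% lower. The groups' CPM ranges did not overlap for 3 members, and for 44.8% of all genes tested. Thus 3 of 7 called is near the background share, and calls were common across the genome. The median log2 fold change of the members was -0.15, against 0.00059 over all genes.

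**Figure D2:**
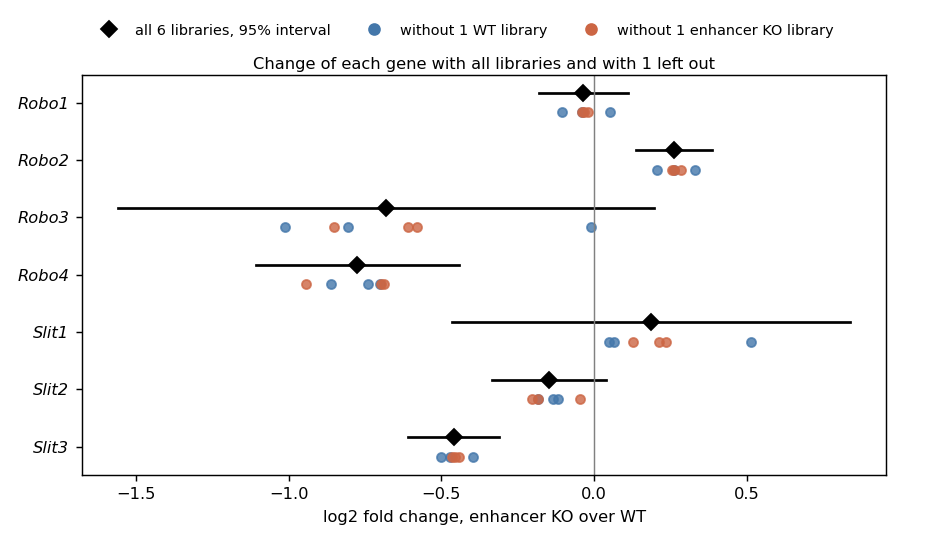
Log2 fold change, enhancer KO over WT, of each gene with all 6 libraries (black diamond, bar: 95% interval) and with 1 WT library (blue) or 1 enhancer KO library (orange) left out. With 1 library left out Robo1 alone crosses 0, and the values of Robo3 and Slit1 shift furthest without WT replicate 1, to -0.01 and 0.51.

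Robo1, a Slit receptor of growing axons and migrating neurons, was at 80.8, 71.2 and 65.6 CPM in the WT libraries and at 71.8, 69.4 and 71.3 CPM in the enhancer KO libraries. WT replicate 1 was the highest and WT replicate 3 the lowest, with every enhancer KO library between them. The edgeR log2 fold change of Robo1 was -0.03 ± 0.07 (SE; 95% interval -0.18 to 0.11; adjusted p = 0.7315). Without WT replicate 1 its sign turned, to 0.05. The interval holds changes of either sign but none as large as the fall of Slit3.

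Robo2, the other main Slit receptor, was at 79.5, 71.8 and 67.3 CPM in WT and at 86.1, 87.7 and 88.4 CPM in enhancer KO. Every enhancer KO library lay above every WT library, and the enhancer KO libraries differed little among themselves. The mean rose from 72.9 ± 6.19 to 87.4 ± 1.16 CPM (SD, n = 3 each), which is 19.9% higher in the fit (edgeR log2 fold change 0.26 ± 0.06 (SE), 95% interval 0.14 to 0.39, adjusted p = 0.004368). Leaving out any 1 library kept the call, with log2 fold changes of 0.21 to 0.33. With WT replicate 1 as the only WT library the value was 0.16 (edgeR adjusted p = 0.07173); the spread in that fit comes from the enhancer KO libraries alone.

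Robo3, the receptor of crossing axons, had few reads: 53, 15 and 18 in WT and 20, 29 and 23 in enhancer KO. These are 1.63, 0.733 and 0.533 CPM in WT and 0.532, 0.754 and 0.552 CPM in enhancer KO. Only WT replicate 1 stood apart, and the other 5 libraries overlapped. The edgeR log2 fold change of -0.68 ± 0.40 (SE; 95% interval -1.56 to 0.20) did not pass the test (adjusted p = 0.2249), and without WT replicate 1 it was -0.01. With WT replicate 1 as the only WT library, a fit whose spread comes from the enhancer KO group alone, the edgeR value was -1.39 (adjusted p = 0.01947). The Robo3 value thus rested on WT replicate 1.

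Robo4, the endothelial member, was at 8.05, 6.20 and 7.67 CPM in WT (261, 127 and 259 reads) and at 3.88, 5.25 and 3.76 CPM in enhancer KO (146, 202 and 157 reads). All enhancer KO libraries lay below all WT libraries, and enhancer KO replicate 2 came nearest to them. Robo4 had the largest called change of the 7: it was 1.71-fold lower (edgeR log2 fold change -0.78 ± 0.15 (SE), 95% interval -1.11 to -0.44, adjusted p = 0.002466). Its neighbour Robo3 is read on the opposite strand, and at most 2 reads per library fell on the other strand of Robo4.

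Of 12 endothelial markers, 7 were called lower and none higher, with a median log2 fold change of -0.36. Their summed level was 235, 210 and 245 CPM in WT and 190, 189 and 163 CPM in enhancer KO, without overlap, and no marker was at 0 throughout. Among them Pecam1, an adhesion molecule of endothelial junctions, fell from 16.4 ± 0.837 to 12.4 ± 1.01 CPM (SD, n = 3 each; edgeR adjusted p = 0.003375). Slco1a4, a transporter of the blood-brain barrier, fell from 42.1 ± 0.429 to 29.8 ± 1.58 CPM (edgeR adjusted p = 5.122e-05). Kdr, a receptor for VEGF, had 26.6 ± 5.73 and 21.4 ± 2.36 CPM in the 2 groups and did not pass, and the transcription factor Erg had a positive log2 fold change of 0.35 that did not pass either (edgeR adjusted p = 0.06444). Robo4 moved in the direction of most of these 12 markers, while 17.9% of all genes tested were called lower.

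Relative to 1000 reads of the endothelial markers, Robo4 had 34.3, 29.5 and 31.3 reads in WT and 20.4, 27.8 and 23.2 reads in enhancer KO. The groups did not overlap on this scale either; the ratio was chosen after its values were seen and was not tested. Markers of mural cells, which wrap the vessels, summed to 190 to 216 CPM in WT and 173 to 189 CPM in enhancer KO, with 2 of 7 called lower. Over all genes tested, the share called lower was 17.9%. The part of the vessel markers' fall in the fall of Robo4 was not tested.

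**Figure D3:**
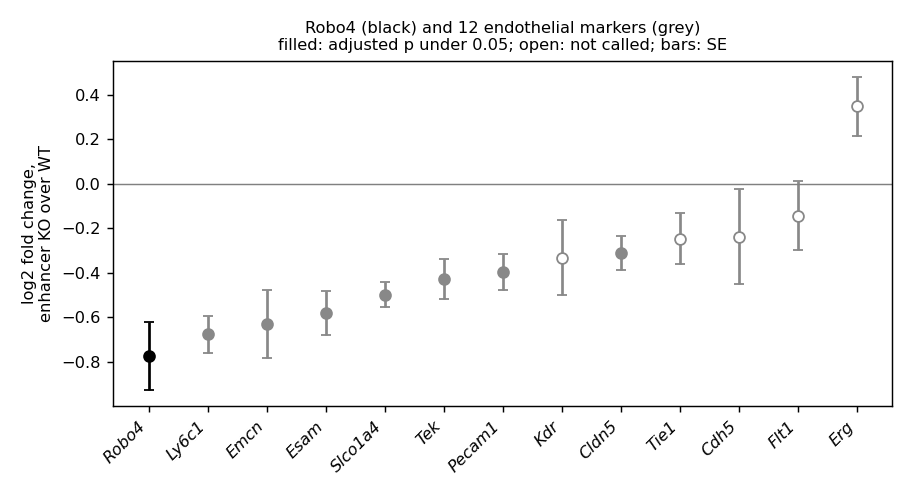
Log2 fold change, enhancer KO over WT, of Robo4 (black) and 12 endothelial markers (grey), with bars of 1 SE. Filled points have an edgeR adjusted p under 0.05, and Robo4 at -0.78 lies lowest, with 7 markers called lower and Erg alone above 0.

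Slit1, a ligand made mainly by neurons, was at 29.8, 16.3 and 17.9 CPM in WT and at 27.0, 23.8 and 22.8 CPM in enhancer KO. WT replicate 1 was the highest library and the other two WT libraries were the lowest, so the groups overlapped. The edgeR log2 fold change of 0.19 ± 0.25 (SE; 95% interval -0.46 to 0.84) did not pass the test (adjusted p = 0.6359). The result turned on WT replicate 1: without it Slit1 was called higher (0.51, edgeR adjusted p = 0.0006748), and with it as the only WT library the value was -0.26 (adjusted p = 0.09538, with the spread taken from the enhancer KO libraries alone).

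The summed markers of the cerebellar nuclei and of midbrain and dorsal hindbrain neurons were also highest among the WT libraries in WT replicate 1. Those of the cerebellar nuclei summed to 329 CPM there, to 256 and 248 CPM in the other WT libraries and to 334 to 363 CPM in enhancer KO, with 2 of 7 called higher and none at 0 throughout. One of them, the transcription factor Lhx9, was at 15.6 CPM in WT replicate 1, at 1.76 and 2.60 CPM in the other WT libraries and at 13.6 to 16.4 CPM in enhancer KO. Lhx9 was singled out after its values were seen, and Tbr1, Spp1 and Irx3 of the same list were lowest among the WT libraries in WT replicate 1. Midbrain and dorsal hindbrain markers summed to 110 CPM in WT replicate 1, to 71.5 and 83.3 CPM in the other WT libraries and to 93.2 to 97.1 CPM in enhancer KO, with 1 of 13 tested called higher. Beside the calls in both lists, 13.4% of all genes tested were called higher. The part of these markers, and of the sex-linked difference of WT replicate 1, in the Slit1 and Robo3 values was not tested.

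Slit2, the ligand best known from the midline, was at 44.3, 42.9 and 40.6 CPM in WT and at 42.0, 40.4 and 33.0 CPM in enhancer KO. Enhancer KO replicate 3 was the lowest, and the others overlapped. The edgeR log2 fold change of -0.15 ± 0.08 (SE; 95% interval -0.34 to 0.04) did not pass (adjusted p = 0.2187), and was -0.05 without enhancer KO replicate 3.

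Slit3, a ligand found widely outside the nervous system too, was at 25.1, 27.6 and 24.1 CPM in WT and at 19.0, 18.1 and 18.5 CPM in enhancer KO. No enhancer KO library reached the lowest WT library, and the spread was narrow in both groups. The mean fell from 25.6 ± 1.77 to 18.6 ± 0.467 CPM (SD, n = 3 each), which is 1.38-fold lower in the fit (edgeR log2 fold change -0.46 ± 0.07 (SE), 95% interval -0.61 to -0.31, adjusted p = 0.0004042). Slit3 had the smallest adjusted p of the 7 genes. Leaving out any 1 library kept the call of Slit3 (-0.50 to -0.40) and of Robo4 (-0.94 to -0.69).

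**Figure D4:**
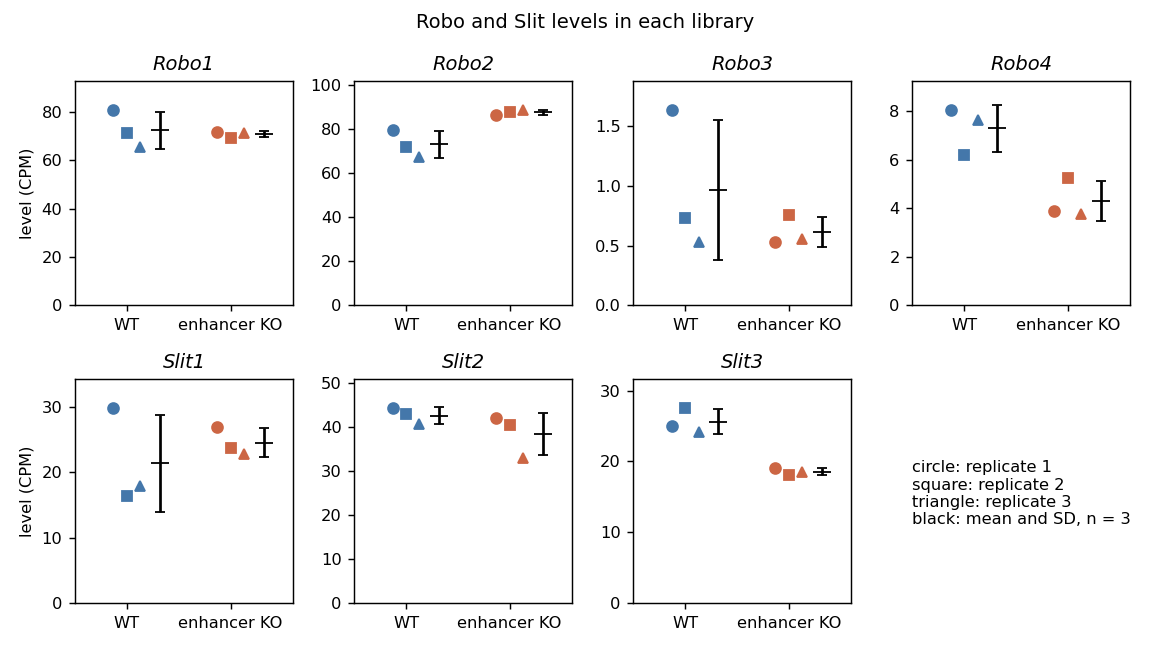
Level (CPM, linear axis from 0) of each gene in each of 3 WT (blue) and 3 enhancer KO (orange) libraries, with the mean and SD in black. The groups do not overlap for Robo2, Robo4 and Slit3, and WT replicate 1 (circle) is the highest WT point for every gene but Slit3.

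Ratios of 2 members within a library do not depend on how libraries are scaled. The log2 ratio of Robo2 to Robo1 reads was -0.02, 0.01 and 0.04 in WT and 0.26, 0.34 and 0.31 in enhancer KO. All enhancer KO libraries lay above all WT libraries, and the means differed by 0.29 (exact two-sided permutation test, p = 0.1, 0.2 adjusted over the 4 ratios computed). The smallest p that 3 libraries against 3 can give is 0.1, so the threshold could not be reached.

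Among the ligands, the log2 ratio of Slit3 to Slit1 was -0.25, 0.76 and 0.43 in WT and -0.50, -0.39 and -0.30 in enhancer KO. It was lower in every enhancer KO library than in any WT library, by 0.71 on average (difference -0.71, exact permutation p = 0.1, adjusted 0.2). The Slit2 to Slit1 ratio (difference -0.40) and the Robo3 to Robo1 ratio (difference -0.48) overlapped between the groups, each with an exact permutation p of 0.3, also 0.3 after adjustment. Without WT replicate 1 the Robo3 to Robo1 difference was -0.11 and the Slit2 to Slit1 difference -0.64, and without WT replicate 2 the latter was -0.23. Without WT replicate 3 the Robo3 to Robo1 difference was -0.76.

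As shares of the summed TPM of the 4 receptors, Robo2 took 41.5% to 42.8% in WT and 48.2% to 49.1% in enhancer KO. Robo1 took 48.7% to 50% and 45.4% to 47.4%, so by this measure Robo2 had the larger share in enhancer KO and Robo1 in WT. Which of them is larger depends on the exon lengths used (7.563 kb for Robo1, 8.915 kb for Robo2), and the annotation behind the counts was not stated. Robo4 took 6.45% to 8.42% in WT and 3.65% to 5.096% in enhancer KO. Slit3 took 33.5% to 42.7% of the ligand sum in WT and 29.3% to 33.0% in enhancer KO. The receptor sum over the ligand sum was 1.501, 1.53 and 1.52 in WT and 1.61, 1.75 and 1.88 in enhancer KO, values given as a description with no test.

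The microRNA genes inside the members had too few reads to be tested. Mir218-1 had 6, 6 and 1 reads in WT and 2, 2 and 1 in enhancer KO, and Mir218-2 had 6, 3 and 6 in WT and 2, 0 and 5 in enhancer KO. Mir691 had 5, 2 and 5 reads in WT and 2, 0 and 4 in enhancer KO. A count of 0 in enhancer KO replicate 2 allows up to 3 reads, or 0.0780 CPM, by counting error alone. The labels name no small RNA library, and these reads cannot be taken as a measure of the mature microRNAs shown above.

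Inside the cell, Robo receptors act on the cytoskeleton through adaptors, small GTPases and their regulators. Of 22 such effectors, 7 were called higher (Enah, Evl, Nck2, Pak3, Rac1, Cdc42 and Cap2), 3 lower (Srgap2, Arhgap39 and Myo9b) and 12 not, with a median log2 fold change of 0.07. Beside this list and the lists below, 31.3% of all genes tested were called, 13.4% higher and 17.9% lower. Whether any list differs from that share was not tested. The largest of these called changes was in Myo9b, a myosin with a GTPase-activating domain, which fell from 76.5 ± 3.85 to 52.9 ± 3.70 CPM (SD, n = 3 each; edgeR log2 fold change -0.54 ± 0.06 (SE), adjusted p = 4.458e-05). Srgap2, a GTPase-activating protein that binds Robo1, fell from 193 ± 10.4 to 163 ± 4.62 CPM (edgeR adjusted p = 0.001867), a call lost with library size as the only scaling (adjusted p = 0.06775).

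Its relatives differed: Srgap1 was at 68.8 ± 1.21 and 74.1 ± 1.56 CPM and Srgap3 at 331 ± 11.5 and 320 ± 5.74 CPM (SD, n = 3 each), and neither passed. Enah, an actin regulator of the growth cone, rose from 247 ± 14.8 to 282 ± 4.58 CPM (edgeR adjusted p = 0.01019), and Cap2, which binds actin, from 70.1 ± 2.56 to 78.7 ± 1.61 CPM (adjusted p = 0.01248). The number of effectors called higher was 4, 3, 3, 2 and 4 without WT replicate 2, WT replicate 3 and enhancer KO replicates 1, 2 and 3 in turn.

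Of 8 genes for the trafficking and cleavage of Robo receptors, 2 were called higher, 2 lower and 4 not (median log2 fold change -0.02). Nedd4l, a ubiquitin ligase, fell from 131 ± 1.22 to 101 ± 4.61 CPM (SD, n = 3 each; edgeR log2 fold change -0.38 ± 0.04 (SE), adjusted p = 6.6e-05). Usp33, a deubiquitinase that binds Robo1, fell from 148 ± 7.81 to 127 ± 4.01 CPM (edgeR adjusted p = 0.004637), and was not called with library size as the only scaling (adjusted p = 0.1344). Ndfip1, an adaptor that brings ubiquitin ligases to Robo1, rose from 210 ± 5.45 to 241 ± 6.76 CPM (edgeR adjusted p = 0.002414). Its relative Ndfip2 was barely past the threshold (79.2 and 86.2 CPM, adjusted p = 0.04864), and its call was lost under 11 of 19 alternative settings. The sheddase Adam10 was at 129 ± 7.06 and 127 ± 2.26 CPM and did not pass.

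Slits bind heparan sulfate and dystroglycan, and of 13 proteoglycan and sugar-chain genes 6 were called higher (Sdc3, Sdc4, Ndst1, Hs2st1, Hs6st2 and B4gat1), none lower and 7 not, with a median log2 fold change of 0.15. Sdc4, a cell-surface syndecan, rose from 123.5 ± 1.49 to 156 ± 7.08 CPM (SD, n = 3 each; edgeR log2 fold change 0.33 ± 0.04 (SE), adjusted p = 0.0001676). Ndst1, which begins the sulfation of heparan chains, rose from 141 ± 2.84 to 171 ± 7.21 CPM (edgeR adjusted p = 0.0005744). B4gat1, an enzyme of the sugar chain on dystroglycan, rose from 63.6 ± 1.996 to 74.9 ± 1.68 CPM (adjusted p = 0.001631), and Hs2st1, a heparan sulfotransferase, from 51.0 ± 2.22 to 58.7 ± 1.73 CPM (adjusted p = 0.008167). Dag1, which encodes dystroglycan itself, was at 202 ± 9.42 and 210 ± 8.04 CPM and did not pass.

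Of 10 partner receptors and other ligands, 3 were called higher, 2 lower and 5 not (median log2 fold change 0.08). Unc5b, a netrin receptor that binds Robo4 on endothelium, fell from 126 ± 1.65 to 99.5 ± 0.987 CPM (SD, n = 3 each; edgeR log2 fold change -0.34 ± 0.04 (SE), adjusted p = 5.727e-05). Unc5b and Robo4 were both lower in every enhancer KO library than in any WT library. Full separation of WT from enhancer KO, in either direction, occurred in 44.8% of the tested genes. Which cells the Unc5b reads came from was not tested. Nell1, a secreted relative of the Robo3 ligand Nell2, rose from 42.4 ± 2.95 to 51.7 ± 1.91 CPM (edgeR adjusted p = 0.002852).

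The adhesion protein Flrt2 rose from 38.6 ± 1.85 to 46.4 ± 3.92 CPM (edgeR adjusted p = 0.01048), which did not hold without enhancer KO replicate 2 (adjusted p = 0.05183). Flrt3, which binds Robo1, fell from 25.1 ± 0.493 to 21.6 ± 1.03 CPM (edgeR adjusted p = 0.02084), a call lost under 7 of 19 alternative settings, among them leaving out WT replicate 2 or enhancer KO replicate 2. Without enhancer KO replicate 2, 1 gene of these 10 was called higher and 1 lower, and without WT replicate 2, 1 was called lower. The netrin receptor Dcc (34.2 ± 2.88 and 35.8 ± 0.754 CPM) and its ligand Ntn1 (114 ± 12.3 and 136 ± 11.8 CPM) did not pass.

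Among 14236 genes with a mean of at least 1 CPM, those most like each member over the 6 libraries were found by Pearson correlation of log2 CPM. The values are a description, since all genes share the same libraries and scaling. Slit3 was closest to Zfp846 (r = 0.9985) and Rmdn1, Robo2 to Ubl4a (r = 0.9989) and Trhr, and Robo4 to Cenpj (r = 0.9955) and Wdr90. Slit1 was closest to Bend4 (r = 0.9978) and Ankfn1, Robo3 to Cpne7 (r = 0.9975) and Tanc2, Slit2 to P4ha1 (r = 0.9889) and Dock5, and Robo1 to 6330409D20Rik (r = 0.9806) and Synj1. A correlation above 0.9 was reached by 12.5% of the genes for Slit3, 5.84% for Robo2 and 4.62% for Robo4, against 0.393% for Robo3, 0.407% for Robo1, 0.618% for Slit2 and 1.42% for Slit1. The 3 members whose groups did not overlap had the larger shares. Since the groups did not overlap for 44.8% of all genes tested, these shares restate that separation and are not a separate result.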

How the data were processed

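The submitters' processing notes name Trimmomatic, STAR and the mm10 build; their versions and settings and the gene annotation were not stated in the sources used here. Deposited values are raw read counts per gene, and the column for the strand that held nearly all stranded reads (1.62% to 1.88% lay on the other) was used. Genes were filtered by filterByExpr, scaled by TMM and tested with the quasi-likelihood test of edgeR 4.0.16 (R 4.3.3; robust, two-sided, Benjamini-Hochberg, threshold 0.05) over 15846 genes. CPM use TMM-scaled library sizes, and TPM were computed here from the counts and exon lengths. Ratios had 0.5 added to each count. Positions and lengths came from GENCODE mouse release M21 on the same build. Of 24411 symbols, 23334 matched by symbol and 649 by an older one.

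Alternatives used DESeq2 1.42.0, limma 3.58.1, mgcv 1.9.3 and other filters, scalings and sets of libraries. The named genes were the 7 members, Atoh7, genes inside a member, the 2 genes most like each member, and up to 4 called genes of each pathway list with the smallest p; other genes were chosen after their values were seen. The members and lists were chosen with earlier results of these data known. The tests were run on simulated data first. Every pair of libraries differed by more than the sampling noise.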

Additional observations from a re-analysis of the deposited data

How the results depend on the processing

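Robo4 and Slit3 kept their direction and call under 19 of 19 alternatives (log2 fold changes -0.94 to -0.69 and -0.50 to -0.39; highest adjusted p 0.02238 and 0.02852). Robo2 kept its call under 17 of 19, and lost it with a minimum fold of 1.2 (adjusted p = 0.9936) and without WT replicates 2 and 3 (1 WT library left, assumed to vary like enhancer KO). The members called higher then numbered 0 in both settings, and 1 to 2 when single libraries were left out. Robo1 turned to 0.028 with library size alone and to 0.053 without WT replicate 1 (range over single libraries left out -0.10 to 0.053), and Slit1 to -0.26 without WT replicates 2 and 3; the cause was not tested. Robo3 did not pass the filter of 1 CPM and had no value there. Over all genes, 2120 were called higher and 2844 lower. With a minimum fold of 1.2 these were 83 and 908, and such a test lowers both counts by construction. The lower calls numbered 1689 with library size alone and 1640 without WT replicates 2 and 3. The share of lower among all calls was 57.3%, against 43.8% when scaled by library size only and 43.4% after removal of a trend over gene structure (intron length, exon length, GC). With the minimum fold of 1.2 it was 91.6%, so the calls left there were mostly falls. No alternative moved the median of all genes by over 0.1. The effectors called higher (7) were 11 with that trend removed, 4 with the replicate block and 0 with the minimum fold.

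With the replicate block, 1961 genes were called higher and 2635 lower, and of the members 1 was higher and 2 were lower. Samples with the same number did not deviate together (correlations 0.053, -0.039 and -0.080), and 2 of 6 libraries correlated best with their own number, so the numbers were not taken to pair the samples. All 4 ratios kept their direction with no added count, counts of both strands, the replicate block and each single library left out. They were not run with WT replicate 1 as the only WT library. In that library the log2 ratio of Slit2 to Slit1 was 0.57, within the enhancer KO values of 0.64, 0.77 and 0.53. Robo3 and the microRNA genes had few reads, which limits their precision.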

Other observations

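On the strand opposite to the gene, Slit1 had 20 reads in the 3 WT libraries together and 7 in the 3 enhancer KO libraries. This was 0.922% to 1.18% of its stranded reads in WT and 0.210% to 0.295% in enhancer KO, without overlap. The counts were small: 9, 4 and 7 reads for WT replicates 1 to 3, and 3, 2 and 2 for enhancer KO. Across whole libraries, the share on the other strand was lower for enhancer KO too, at 1.62% to 1.70%, against 1.76% to 1.88% for WT. Whether Slit1 differed from this library-wide share was not tested. Slit2 had 26 and 44 such reads (0.508% to 0.903% and 0.864% to 1.02%). The other members had at most 18 in a group. These comparisons were chosen after their values were seen and were not tested.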
